A study of Mus musculus with 5 samples.

Results

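The genes described here code for proteins that process and translate RNA: splicing factors, RNA helicases, RNA polymerase subunits, exosome subunits, a nucleolar protein and translation factors. They were chosen by the prefix of their symbols and not by their values, which gave 44 members of the 4743 genes listed in the deposited tables: 27 splicing genes, 3 helicase genes, 3 polymerase genes, 2 exosome genes, 1 nucleolar gene and 8 translation genes. RNA was sequenced from forelimb muscle of C57BL/6 mouse embryos at E15.5, from 3 Noggin-deficient samples and 2 wild type samples. The labels give neither the allele, the altered part of the gene, the sex, the litter, any pooling nor whether each sample was an embryo of its own, so a p-value covers the spread among these 5 samples alone, and that spread may be technical. Noggin is an extracellular antagonist of bone morphogenetic proteins (BMPs).

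The spliceosome removes introns with small nuclear ribonucleoproteins (snRNPs), each a small RNA held in a ring of Sm or LSm proteins. Around this core machinery, RNA-binding regulators decide which exons are kept. In muscle, MBNL and CELF proteins act on many shared exons in opposite ways, and RBM20 and RBM24 direct the splicing of sarcomere genes. Maturing muscle also replaces the elongation factor eEF1A1 with its close relative eEF1A2.

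The deposited values are a signal that the authors normalized, in a unit not named in the sources, so levels are compared between samples of a gene and not between genes. The listed genes had been picked, on grounds that the sources leave unstated, for differing between these same samples. With limma on log2(value + 0.25), 3836 of the 3913 tested genes passed an adjusted p of 0.05 (98.0%), 37.9% of the tested genes being higher and 60.1% lower in Noggin-deficient muscle, so that a call by itself says nothing particular about a member. The listed values summed to 92210 to 93695 per Noggin-deficient library and 100792 to 102783 per wild type library, and the number of reads behind them is unknown. Nog itself stood at 0.49, 0.42 and 0.42 in Noggin-deficient muscle, against 2.0 and 1.99 in wild type muscle. Markers of skeletal muscle were present, 9 of the 12 on the list, with summed values of 4709 to 4909 in the Noggin-deficient libraries and 6640 to 6750 in the wild type libraries. All 9 fell, at a median log2 change of -0.49. In bulk tissue, fewer cells of a type and less RNA per cell cannot be told apart.

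Of the 44 members, 39 passed the filter on low values (0.5 or more in at least 2 libraries). Of these 39, 21 rose, 17 fell and 1, Srsf12, did not pass the test. The 5 untested members were Celf5, Celf6, Rbfox3, Rbm4b and Srsf15. The values of the Noggin-deficient and wild type libraries did not overlap for 38 of the 39 tested members, where the share over all tested genes was 99.3%. The median log2 change of the tested members was 0.36, beside -0.28 over all tested genes, and 53.8% of the tested members rose.

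**Figure D1:**
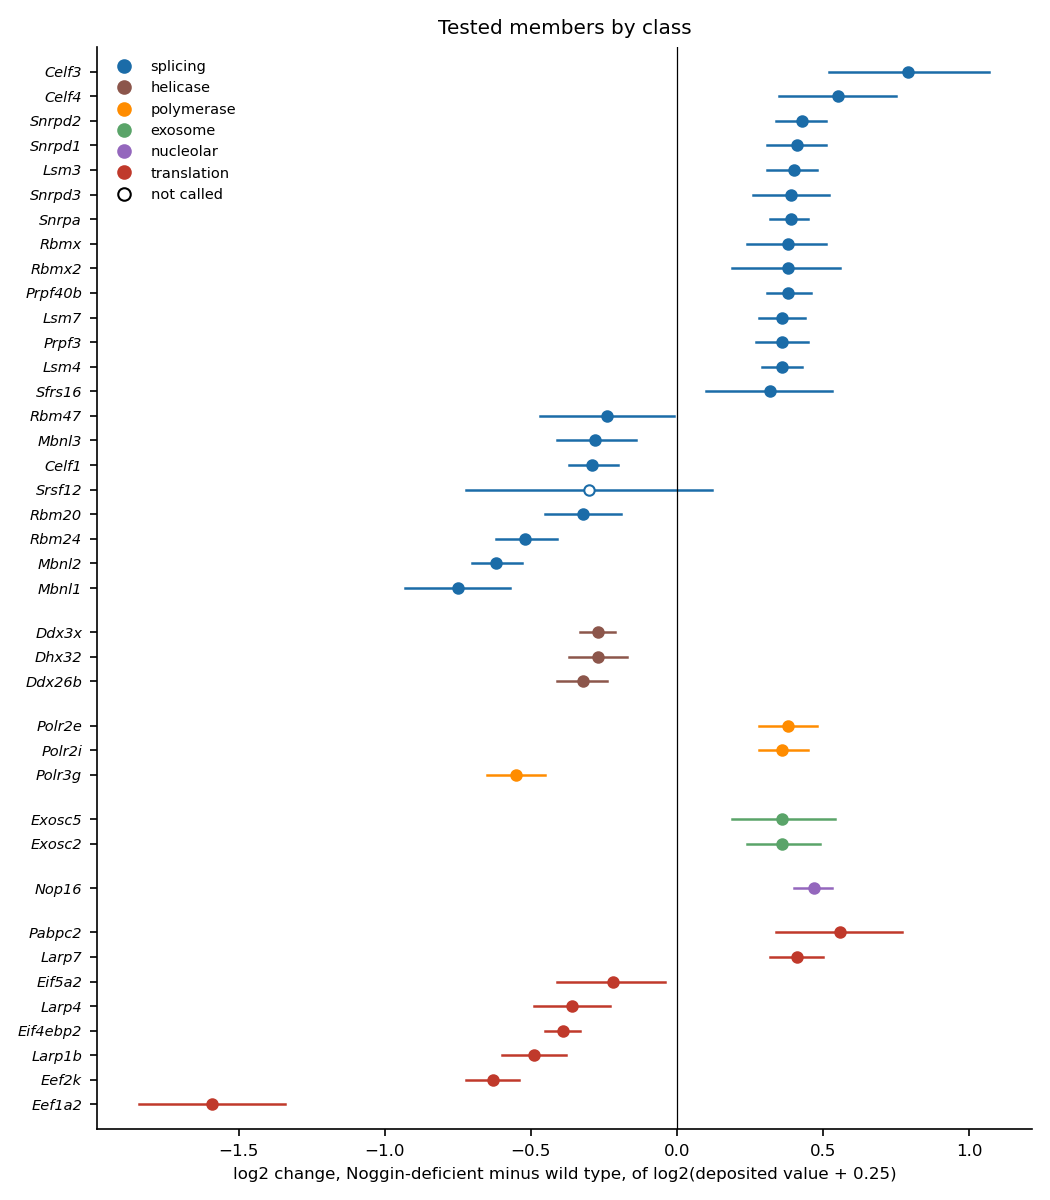
Log2 change (Noggin-deficient minus wild type, on log2(value + 0.25)) of the 39 tested members, grouped by class; bars are 95% limma intervals. The 21 called higher lie between 0.32 and 0.79 and the 17 called lower between -1.59 and -0.22, with Eef1a2 alone beyond -1.

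The balance of rises and falls depended on how the libraries were set against each other. The scaling factors and the length trend were computed from the listed genes alone, which had been picked for differing. Medians near 0.0 over all genes therefore follow from the method, and changes under these settings are relative to the listed genes. Under median-of-ratios scaling the median of all genes moved to -0.03 and that of the members to 0.62, with 21 members higher, 8 lower and 10 not called. Over all genes, 70.8% were then called, 38.6% higher and 32.2% lower. A trend of the changes with transcript length was also removed as an alternative, which left the members' median at 0.04, beside 0.0 over all genes. With it removed, 13 members were higher, 9 lower and 17 not called, where 67.0% of all genes were called, 32.3% higher and 34.7% lower. Under these 2 settings, upper-quartile scaling and a version of the length correction with the median transcript length, added after seeing the data, 12 of the 21 rises (57.1%) and 7 of the 17 falls (41.2%) kept their call and direction. Over all listed genes with a transcript length, 77.9% of the rises and 43.2% of the falls did. The 12 were Celf3, Celf4, Pabpc2, Nop16, Snrpd2, Larp7, Rbmx, Prpf40b, Snrpd3, Snrpa, Exosc2 and Prpf3, and the 7 were Larp1b, Rbm24, Polr3g, Mbnl2, Eef2k, Mbnl1 and Eef1a2.

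**Figure D2:**
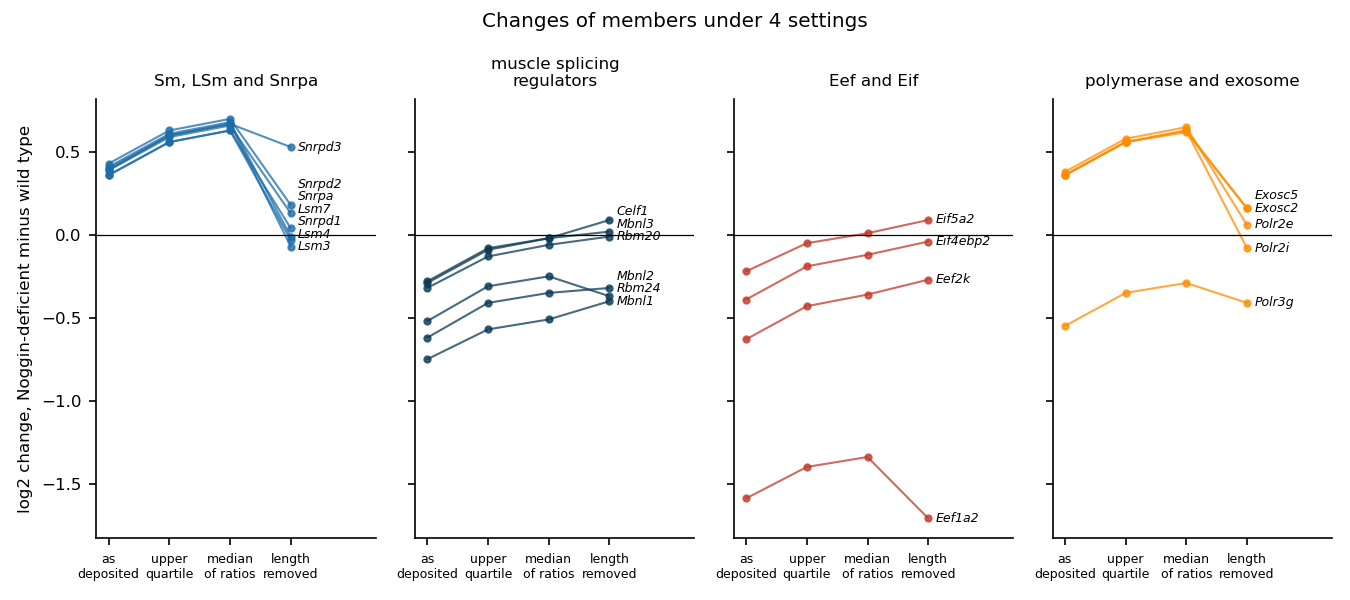
Log2 change (Noggin-deficient minus wild type) of selected members in 4 panels: the Sm, LSm and Snrpa genes, the muscle splicing regulators, the Eef and Eif genes, and the polymerase and exosome genes. Each line is a member followed across 4 settings (as deposited, upper-quartile scaling, median-of-ratios scaling, length trend removed); both scalings shift members up, and removing the length trend brings the first panel to between -0.07 and 0.53.

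All 7 listed genes of the snRNP core (Sm, LSm and Snrpa, a grouping made after the values were seen) rose as deposited, where 37.9% of all tested genes did. Their log2 changes were 0.36 to 0.43. With the length trend removed 3 were higher and 4 were not called, where 32.3% of all genes were higher. Their median was 0.39 as deposited, 0.67 after median-of-ratios scaling and 0.04 with the length trend removed, when Lsm3, Lsm4 and Snrpd1 took log2 changes of -0.07, -0.03 and -0.01. Of the 8 proliferation markers, 3 were listed and all 3 rose as deposited. Their summed values were 128 to 130 in the Noggin-deficient libraries and 97.3 to 98.1 in the wild type libraries. The median log2 change of these markers was 0.39 as deposited, 0.66 after median-of-ratios scaling and 0.56 with the length trend removed. The part of these markers in the snRNP values was not tested.

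Snrpd2 codes for the Sm protein D2 of the ring around spliceosomal RNAs. It had values of 187, 189 and 186 in Noggin-deficient muscle, against 134 and 145 in wild type muscle. Every Noggin-deficient value lay above both wild type values, and the log2 change was 0.43 (SE 0.0365, limma adjusted p = 2.4e-05). Snrpd3, for the ring protein D3, had 144, 138 and 131 in Noggin-deficient muscle, compared with 98.8 and 111 in wild type muscle, with a log2 change of 0.39 (SE 0.0561, adjusted p = 0.00032 by limma). Its Noggin-deficient values were all higher, although they spread over more than those of Snrpd2. With the length trend removed the change of Snrpd3 was 0.53 with its longest transcript of 3036 bases and 0.27 with the median transcript length, since its annotated transcripts run from 442 to 3036 bases. Snrpd1, for the ring protein D1, had 103, 101 and 101 in Noggin-deficient muscle, against 72.5 and 80.2 in wild type muscle, giving a log2 change of 0.41 (SE 0.0427, adjusted p = 6.2e-05 by limma). Its Noggin-deficient values lay close together and above both wild type values.

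Snrpa codes for the A protein of the U1 snRNP, which recognises the start of an intron. It had 70.6, 72.1 and 69.9 in Noggin-deficient muscle, against 54.3 and 54.1 in wild type muscle, with no overlap. Its log2 change of 0.39 (SE 0.0263, limma adjusted p = 8.3e-06) was 0.66 under median-of-ratios scaling and 0.13 with the length trend removed. The LSm proteins form related rings, on U6 RNA in the nucleus and on messenger RNA bound for decay in the cytoplasm. Lsm3, in both rings, had 56.7, 59.0 and 54.9 in Noggin-deficient muscle, compared with 42.5 and 43.7 in wild type muscle, giving a log2 change of 0.40 (SE 0.0359, adjusted p = 3.1e-05 by limma). Lsm4 had 61.3, 64.8 and 63.8 in Noggin-deficient muscle, against 49.7 and 48.8 in wild type muscle. Lsm7 had 34.3, 34.9 and 35.8 in Noggin-deficient muscle, against 27.9 and 26.5 in wild type muscle. Both had a log2 change of 0.36 and groups that did not overlap.

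Beside the rings, Prpf3, a protein of the tri-snRNP that joins the forming spliceosome, had 11.5, 12.1 and 11.6 in Noggin-deficient muscle, compared with 8.92 and 9.29 in wild type muscle. Prpf40b, a relative of a yeast U1 snRNP protein, had 12.9, 13.2 and 12.9 in Noggin-deficient muscle, against 10.1 and 9.79 in wild type muscle. The longest transcript was 2933 bases for Prpf3 and 3308 bases for Prpf40b, beside a median of 3205 over tested genes. Rises of both genes were larger with the length trend removed than as deposited, but below the 0.62 and 0.65 of median-of-ratios scaling. Removing the trend also moved the median log2 change of all tested genes from -0.28 to 0.0. The log2 change of Prpf3 was 0.36 as deposited (SE 0.0391, limma adjusted p = 7.9e-05) and 0.48 with the trend removed. That of Prpf40b was 0.38 as deposited (SE 0.0337, limma adjusted p = 2.7e-05) and 0.56 with the trend removed. Rbmx, an RNA-binding protein of the hnRNP kind with near copies elsewhere in the genome, so that its value is uncertain, had 4.91, 4.63 and 4.85 in Noggin-deficient muscle, against 3.81 and 3.47 in wild type muscle. Rbmx2, a spliceosome-associated protein, had 6.32, 7.47 and 6.21 in Noggin-deficient muscle, compared with 5.16 and 4.95 in wild type muscle. Sfrs16, listed by RefSeq as a synonym of Clasrp, had 1.35, 1.54 and 1.62 in Noggin-deficient muscle, against 1.16 and 1.15 in wild type muscle. Rbmx and Rbmx2 both had a log2 change of 0.38 and Sfrs16 one of 0.32, and none of the 3 had overlapping groups. After removal of the length trend Rbmx was at 0.53 and passed, while Rbmx2 at 0.19 (limma adjusted p = 0.057) and Sfrs16 at 0.22 (adjusted p = 0.069) did not, and with the median transcript length all 3 passed.

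The sequence just upstream of the start of some of these genes is shown because the snRNP genes rose together. The windows are the 250 bases before each annotated start, read 5′ to 3′ on the strand of the gene, from RefSeq on GRCm38.p6 and not on mm9, the build named for the deposited files. They lie at chr7:19149588-19149837 on the plus strand for Snrpd2, chr10:75517792-75518041 on the plus strand for Snrpd3 and chr6:91515785-91516034 on the plus strand for Lsm3. Capitals mark the matches, on either strand, to 5 motifs: the ETS core CGGAAG, the GC box GGGCGG, the CCAAT box CCAAT, the E-box CAGCTG and the NRF1 core TGCGCA. The motifs and the windows shown were chosen after the values were seen.
Snrpd2: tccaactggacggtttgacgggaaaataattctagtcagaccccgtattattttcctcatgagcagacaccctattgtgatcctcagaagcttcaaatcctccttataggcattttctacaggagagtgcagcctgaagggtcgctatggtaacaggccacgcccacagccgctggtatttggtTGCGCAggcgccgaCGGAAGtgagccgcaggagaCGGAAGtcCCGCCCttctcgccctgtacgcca
Snrpd3: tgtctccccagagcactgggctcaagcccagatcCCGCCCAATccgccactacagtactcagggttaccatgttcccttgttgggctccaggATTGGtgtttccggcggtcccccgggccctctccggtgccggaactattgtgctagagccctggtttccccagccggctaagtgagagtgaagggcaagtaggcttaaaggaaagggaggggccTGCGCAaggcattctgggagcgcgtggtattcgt
Lsm3: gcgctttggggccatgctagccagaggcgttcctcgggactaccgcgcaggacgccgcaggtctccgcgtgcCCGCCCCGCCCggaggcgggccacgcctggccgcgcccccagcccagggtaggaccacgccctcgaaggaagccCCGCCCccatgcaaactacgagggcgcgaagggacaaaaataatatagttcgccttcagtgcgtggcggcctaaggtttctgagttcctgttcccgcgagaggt
The Snrpd2 window held an NRF1 core at -66, ETS cores at -52 and -32 and a GC box at -24, counted from the start. That of Snrpd3 held a GC box at -216 that overlaps a CCAAT box at -212, another CCAAT box at -158 and an NRF1 core at -34. That of Lsm3 held GC boxes at -178, -173 and -104, the first 2 overlapping.

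RefSeq windows were matched for 39 of the 44 members. A GC box lay in 32 of them (82.1%), beside 35.4% of the windows of 27025 RefSeq genes and 56.8% of those of the 3384 listed genes with a window. The ETS core lay in 13 (33.3%), beside 15.3% of all and 17.5% of listed genes. The NRF1 core lay in 9 members (23.1%), beside 7.36% of all and 8.81% of listed genes. Among the 17 members called higher with a window the NRF1 core lay in 7, and among the 16 called lower in 2. In the same order, the GC box lay in 14 and 13, the ETS core in 7 and 5, the CCAAT box in 8 and 4, and the E-box in 2 and 1. The CCAAT box lay in 38.5% of members and 38.3% of listed genes, and the E-box in 12.8% of members and 17.4% of listed genes. These shares describe letters in the windows and were not tested, and no factor's binding was measured.

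Of the 10 regulators of muscle splicing named whatever their values, 6 had values: Mbnl1, Mbnl2, Mbnl3, Rbm20, Rbm24 and Celf1. All 6 were called lower as deposited, with log2 changes of -0.75 to -0.28 (median -0.42), where 60.1% of all tested genes were. Under median-of-ratios scaling their changes ran from -0.51 to -0.02 and 3 were called lower, where 32.2% of all genes were. Rbfox1, Rbfox2, Rbm38 and Celf2 were not analysed here. Only Mbnl1, Mbnl2 and Rbm24 of the 6 were also called lower under median-of-ratios scaling (median of the 6 -0.15) and with the length trend removed (median -0.17), when Celf1 was called higher. The muscle markers, whose median of -0.49 was -0.22 under median-of-ratios scaling and -0.61 with the length trend removed, fell in the same samples, and their part in these falls was not tested.

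Mbnl1 codes for muscleblind-like splicing regulator, the protein sequestered by repeat RNA in myotonic dystrophy. It had 1.39, 1.29 and 1.26 in Noggin-deficient muscle, against 2.28 and 2.47 in wild type muscle. The groups did not overlap, with a log2 change of -0.75 (SE 0.0776, adjusted p = 6.1e-05 by limma), -0.51 under median-of-ratios scaling and -0.40 with the length trend removed. Mbnl2, its paralog, had 10.6, 10.2 and 10.1 in Noggin-deficient muscle, compared with 15.9 and 15.8 in wild type muscle, giving a log2 change of -0.62 (SE 0.0351, adjusted p = 3.4e-06 by limma). The spread within each group was small against the gap between them, and the change was -0.35 under median-of-ratios scaling and -0.32 with the length trend removed. Mbnl3, another paralog, had 4.27, 3.98 and 4.43 in Noggin-deficient muscle, against 5.15 and 5.19 in wild type muscle. Its log2 change of -0.28 (SE 0.0566, limma adjusted p = 0.002) was -0.02 under median-of-ratios scaling and 0.02 with the length trend removed, and neither passed the test, while with the median transcript length it was -0.33 and passed (adjusted p = 0.00089).

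Rbm24, an RNA-binding protein needed for muscle-specific splicing, had 15.8, 14.8 and 14.4 in Noggin-deficient muscle, against 21.5 and 21.6 in wild type muscle. Every Noggin-deficient value was lower, and the log2 change was -0.52 (SE 0.0433, limma adjusted p = 2.2e-05), -0.25 under median-of-ratios scaling and -0.37 with the length trend removed. A GC box lay in 3 of the 5 muscle splicing regulators with a window, and in 13 of the 16 members called lower with a window. The window of Rbm24, at chr13:46418050-46418299 on the plus strand of GRCm38.p6, is shown as that of a member that fell under each scaling. None of the 5 motifs lay in it.
Rbm24: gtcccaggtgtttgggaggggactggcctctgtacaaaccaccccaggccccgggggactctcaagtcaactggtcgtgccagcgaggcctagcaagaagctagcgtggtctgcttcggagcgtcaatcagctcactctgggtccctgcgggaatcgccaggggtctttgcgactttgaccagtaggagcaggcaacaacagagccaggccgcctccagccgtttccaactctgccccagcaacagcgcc
Rbm20, a regulator of titin splicing, had 2.98, 2.84 and 2.99 in Noggin-deficient muscle, compared with 3.77 and 3.67 in wild type muscle. Its log2 change of -0.32 (SE 0.0553, limma adjusted p = 0.00089) was -0.06 under median-of-ratios scaling and -0.01 with the length trend removed, neither of which passed. Celf1, which opposes MBNL proteins on many muscle exons, had 10.9, 10.6 and 10.8 in Noggin-deficient muscle, against 13.5 and 13.0 in wild type muscle. The groups did not overlap, but Celf1 has the longest transcript of the members, 7851 bases, and its log2 change of -0.29 (SE 0.0348, limma adjusted p = 0.00014) was -0.02 under median-of-ratios scaling and 0.09 with the length trend removed.

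**Figure D3:**
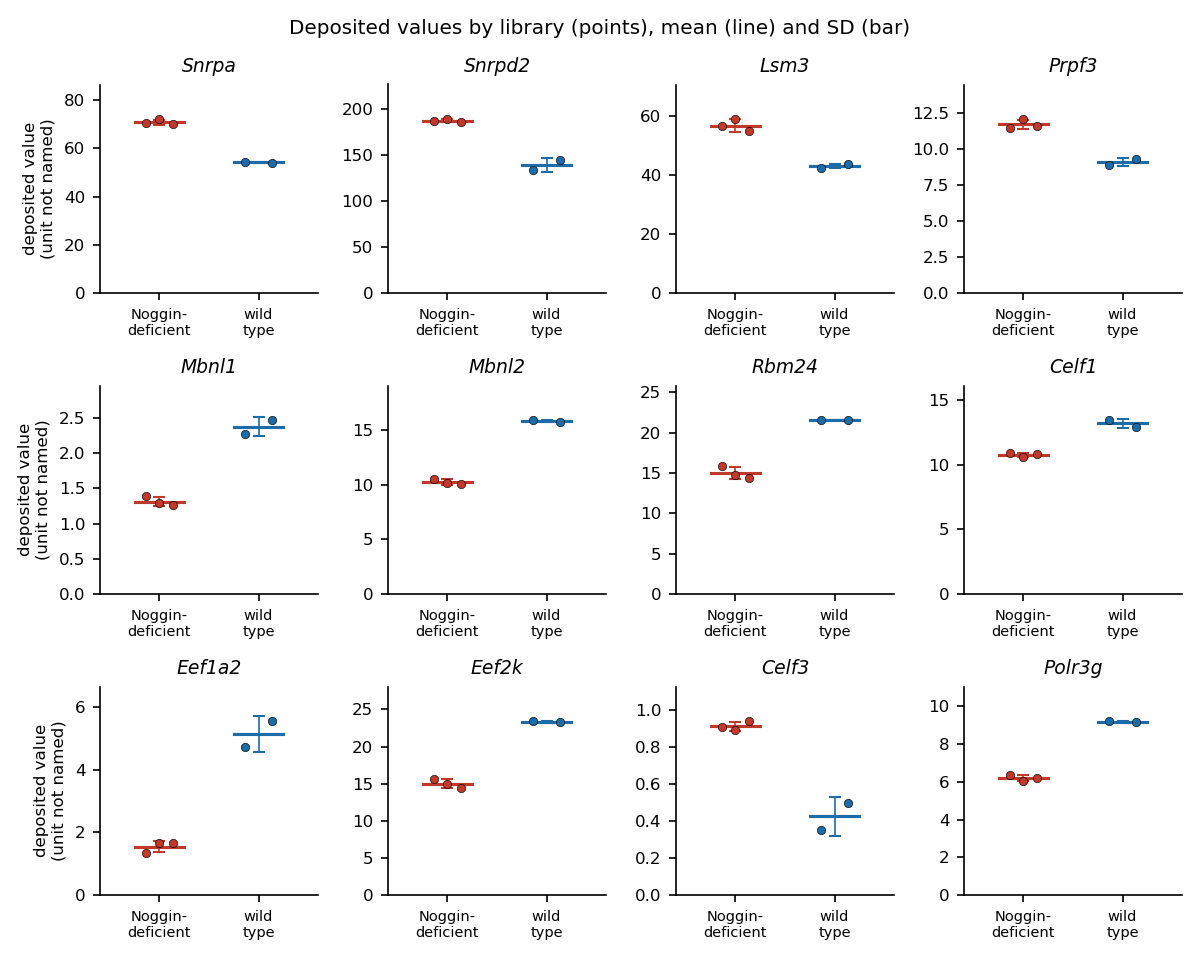
Deposited signal (unit not named) of 12 members in each library, Noggin-deficient on the left and wild type on the right of each panel; points are libraries, lines are group means and bars the SD. Snrpa, Snrpd2, Lsm3, Prpf3 and Celf3 lie higher in all 3 Noggin-deficient libraries, and the other panels lie lower.

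Members of the CELF and RBFOX families found mostly in neurons had low values. In each of the 5 listed, every Noggin-deficient value lay above both wild type values. Over all 4743 listed genes, the groups did not overlap in 4658. Celf3 had 0.91, 0.89 and 0.94 in Noggin-deficient muscle, against 0.35 and 0.50 in wild type muscle, and passed the filter through the Noggin-deficient samples. Celf4 had 1.42, 1.25 and 1.39 in Noggin-deficient muscle, compared with 0.83 and 0.86 in wild type muscle. These were the largest rises among the tested splicing members. The log2 change was 0.79 for Celf3 (SE 0.118, limma adjusted p = 0.0004) and 0.55 for Celf4 (SE 0.0869, limma adjusted p = 0.00055). Celf5 had 0.18, 0.35 and 0.28 in Noggin-deficient muscle, against 0.09 and 0.15 in wild type muscle. Celf6 had 0.11, 0.18 and 0.09 in Noggin-deficient muscle, against 0.03 and 0.04 in wild type muscle. Rbfox3, whose protein is the neuronal marker NeuN, had 0.27, 0.10 and 0.14 in Noggin-deficient muscle, compared with 0.08 and 0.09 in wild type muscle. The last 3 were under the filter on low values, and none of them had overlapping groups. With no filter, limma gave Celf6 a log2 change of 0.40 (adjusted p = 0.012), Celf5 one of 0.48 (adjusted p = 0.017) and Rbfox3 one of 0.31 (adjusted p = 0.10), so that Rbfox3 did not pass. Of the 8 markers of neurons and glia, 7 were listed, 6 were tested, and 4 rose and 2 fell, with summed values of 30.5 to 30.9 in the Noggin-deficient libraries and 20.7 to 21.5 in the wild type libraries. The part of these markers in the CELF values was not tested.

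The other splicing members were low. Rbm47, an RNA-binding protein of epithelia, had 0.63, 0.73 and 0.66 in Noggin-deficient muscle, against 0.89 and 0.79 in wild type muscle, and its log2 change of -0.24 (limma adjusted p = 0.047) did not pass without replicate 1 or 3 of the Noggin-deficient libraries or without either wild type library (adjusted p 0.069 to 0.26). All 10 epidermis markers fell, at summed values of 908 to 937 in the Noggin-deficient libraries and 2362 to 2399 in the wild type libraries, and their part in the Rbm47 value was not tested. Srsf12, an SR protein, had 1.22, 1.0 and 1.65 in Noggin-deficient muscle, against 1.42 and 1.83 in wild type muscle. Its groups overlapped, and its log2 change was -0.30 (95% interval -0.72 to 0.12, limma adjusted p = 0.14), or -0.46 (adjusted p = 0.015) without replicate 3 of the Noggin-deficient libraries. Rbm4b, which has a near copy in Rbm4 and is therefore uncertain, had 0.40 to 0.45 in Noggin-deficient muscle, compared with 0.48 to 0.58 in wild type muscle. Srsf15, a RefSeq synonym of Scaf4, had 0.06 to 0.19 in Noggin-deficient muscle, against 0.19 to 0.28 in wild type muscle, which touch.

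The helicase class held 3 genes, which all fell as deposited, where 60.1% of all tested genes fell. Their median log2 change was -0.27, beside -0.28 over all tested genes. Under median-of-ratios scaling it was 0.0, beside -0.03, and limma called 0 of them (adjusted p 0.2 to 0.97, 0 at an unadjusted p under 0.05). With the length trend removed it was -0.11, beside 0.0. Ddx3x, an X-linked DEAD-box helicase that acts in translation initiation, had 66.8, 66.3 and 66.3 in Noggin-deficient muscle, against 79.0 and 81.0 in wild type muscle. Its groups were well apart, with a log2 change of -0.27 (SE 0.0257, adjusted p = 4.2e-05 by limma), but the change was 0.01 under median-of-ratios scaling and 0.03 with the length trend removed. Its Y-linked copy Ddx3y was not analysed here, nor were the sex markers. Dhx32, a divergent DEAH-box protein, had 8.41, 7.98 and 8.30 in Noggin-deficient muscle, compared with 10.2 and 9.73 in wild type muscle, giving a log2 change of -0.27. Ddx26b, which RefSeq lists as a synonym of Ints6l and which is a relative of an Integrator subunit, had 8.20, 7.91 and 8.14 in Noggin-deficient muscle, against 10.3 and 10.0 in wild type muscle, giving a log2 change of -0.32. With the length trend removed both were still called lower, at -0.14 for Dhx32 and -0.11 for Ddx26b, but with the median transcript length Ddx26b was at -0.04 and did not pass (limma adjusted p = 0.32).

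Among RNA polymerase subunits, Polr2e and Polr2i rose and Polr3g fell as deposited. Polr2e and Polr2i did not pass with the length trend removed by longest transcript, and parted in direction with the median transcript length. Polr2e, a subunit shared by the nuclear RNA polymerases, had 77.5, 82.4 and 78.0 in Noggin-deficient muscle, against 58.6 and 63.5 in wild type muscle. Polr2i, a small subunit of polymerase II, had 22.7, 23.4 and 24.2 in Noggin-deficient muscle, compared with 18.0 and 18.3 in wild type muscle. Both rose without overlap, with a log2 change of 0.38 for Polr2e (SE 0.0428, limma adjusted p = 9.8e-05) and 0.36 for Polr2i (SE 0.0356, limma adjusted p = 4.6e-05). With the length trend removed these were 0.06 and -0.08, and neither passed. With the median transcript length both passed in opposite directions, Polr2e at 0.17 (limma adjusted p = 0.0051) and Polr2i at -0.15 (limma adjusted p = 0.0047). Polr3g, a polymerase III subunit linked to undifferentiated cells, had 6.37, 6.03 and 6.19 in Noggin-deficient muscle, against 9.21 and 9.16 in wild type muscle. It was lower in every Noggin-deficient library, with a log2 change of -0.55 (SE 0.0408, adjusted p = 1.2e-05 by limma), -0.29 under median-of-ratios scaling and -0.41 with the length trend removed.

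The RNA exosome trims and degrades RNA from its 3′ end, and both of its listed subunits rose by a log2 change of 0.36. Exosc2, of the cap of the complex, had 23.3, 21.9 and 21.1 in Noggin-deficient muscle, against 18.0 and 16.3 in wild type muscle. Exosc5, of the ring, had 4.43, 4.01 and 4.67 in Noggin-deficient muscle, compared with 3.17 and 3.50 in wild type muscle. Neither had overlapping groups, and with the length trend removed both had a change of 0.16, with adjusted p values from limma of 0.02 for Exosc2 and 0.088 for Exosc5, although Exosc5 passed with the median transcript length (0.20, adjusted p = 0.043). Nop16, a nucleolar protein of large ribosomal subunit assembly, had 28.3, 27.6 and 27.6 in Noggin-deficient muscle, against 20.0 and 20.1 in wild type muscle. The libraries of each group nearly coincided, and its rise of 0.47 on the log2 scale (SE 0.0282, limma adjusted p = 4.6e-06) was 0.74 under median-of-ratios scaling and 0.28 with the length trend removed.

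Of the 8 tested translation genes, 2 rose and 6 fell as deposited, where 60.1% of all tested genes fell. The median change of the 8 was -0.37 on the log2 scale, beside -0.28 over all genes, and 4 were called lower under median-of-ratios scaling (median -0.11) and 3 with the length trend removed (median -0.02). Eef1a2 codes for the elongation factor eEF1A2 of mature muscle and neurons. It had 1.33, 1.65 and 1.65 in Noggin-deficient muscle, against 4.73 and 5.54 in wild type muscle. Every Noggin-deficient value lay under 2, and the log2 change was -1.59 (SE 0.106, limma adjusted p = 7.7e-06), -1.34 under median-of-ratios scaling and -1.71 with the length trend removed. Tested against a change of 1.5-fold, Eef1a2 was the only member to pass (adjusted p = 0.00022), where 14.5% of all tested genes passed. Its partner in the switch, Eef1a1, was not analysed here. The window of Eef1a2, at chr2:181157016-181157265 on the minus strand of GRCm38.p6, is shown for the member with the largest change, and it held a GC box at -34.
Eef1a2: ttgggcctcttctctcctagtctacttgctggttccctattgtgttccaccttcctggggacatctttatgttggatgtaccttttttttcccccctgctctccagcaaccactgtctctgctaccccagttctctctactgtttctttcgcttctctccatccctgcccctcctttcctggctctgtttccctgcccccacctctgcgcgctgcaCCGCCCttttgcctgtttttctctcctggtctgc
The muscle markers fell with Eef1a2 at a median of -0.49, and their part in its value was not tested.

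The other members that fell act on initiation, elongation or bound messenger RNA. Eef2k, a kinase that slows elongation by phosphorylating eEF2, had 15.6, 14.9 and 14.5 in Noggin-deficient muscle, compared with 23.4 and 23.3 in wild type muscle. The groups were clearly separate, and the log2 change was -0.63 (SE 0.0382, limma adjusted p = 4.6e-06), -0.36 under median-of-ratios scaling and -0.27 with the length trend removed. Eif4ebp2, a repressor of cap-dependent initiation, had 30.8, 31.5 and 31.4 in Noggin-deficient muscle, against 41.5 and 40.6 in wild type muscle, with a log2 change of -0.39 (SE 0.0273, adjusted p = 9.4e-06 by limma). This was -0.12 under median-of-ratios scaling and still passed (adjusted p = 0.0053), but was -0.04 with the length trend removed (adjusted p = 0.21), or -0.11 and passing with the median transcript length (adjusted p = 0.0057). Larp1b, a La-related protein, had 4.25, 4.35 and 4.25 in Noggin-deficient muscle, against 5.98 and 6.27 in wild type muscle. Its log2 change of -0.49 (SE 0.0463, limma adjusted p = 3.8e-05) was -0.48 with the length trend removed. Larp4, which binds poly(A) and stabilises messenger RNA, had 8.23, 7.93 and 8.49 in Noggin-deficient muscle, compared with 10.1 and 11.2 in wild type muscle, giving a log2 change of -0.36. This was -0.09 under median-of-ratios scaling (limma adjusted p = 0.17) and 0.01 with the length trend removed (adjusted p = 0.93), and neither passed. Eif5a2, a paralog of the factor eIF5A, had 1.51, 1.45 and 1.34 in Noggin-deficient muscle, against 1.77 and 1.66 in wild type muscle. Its log2 change of -0.22 (limma adjusted p = 0.027) did not pass without replicate 3 of the Noggin-deficient libraries or either wild type library (adjusted p 0.05 to 0.14), and was 0.01 under median-of-ratios scaling. Eif4ebp1, Eif4ebp3, the Eif2ak kinases, Eif2s3x and Eif2s3y were not analysed here, nor was the imprinted splicing gene Snrpn.

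The 2 that rose were Larp7 and Pabpc2. Larp7, which despite its family name binds the nuclear RNA that restrains the elongation of transcription, had 42.8, 44.3 and 41.3 in Noggin-deficient muscle, against 32.8 and 31.4 in wild type muscle. Its rise of 0.41 on the log2 scale (SE 0.0378, limma adjusted p = 3.2e-05) was 0.30 with the length trend removed. Pabpc2, a poly(A)-binding protein gene close in sequence to Pabpc1 so that its reads may be shared, had 1.51, 1.78 and 1.66 in Noggin-deficient muscle, compared with 0.99 and 1.09 in wild type muscle. Its log2 change was 0.56 (SE 0.0912, limma adjusted p = 0.00065), and the groups did not overlap. No translation member with a window began with a C and 4 pyrimidines, the pattern of many ribosomal protein transcripts (0 of 7), beside 3.01% of all RefSeq genes. At so low a share, 7 windows are too few to show a lack of the pattern. Over all members with a window it was 0 of 39.

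Members that rose had shorter transcripts than members that fell. The longest annotated transcript ran from 743 bases in Lsm3 to 3995 in Celf4 among the 21 that rose (median 1747), and from 2084 in Eef1a2 to 7851 in Celf1 among the 17 that fell (median 4692). Under 2000 bases, 12 of 12 tested members rose, beside 669 of 1007 tested genes (66.4%). At 2000 bases or more, 9 of 27 members rose (33.3%), beside 732 of 2729 tested genes (26.8%). Across genes, which are not independent replicates, Spearman's rho of change with length was -0.515 over the 39 members and -0.295 over 3736 tested genes. Whether the trend came from the RNA, the library or the unnamed normalization was not tested.

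**Figure D4:**
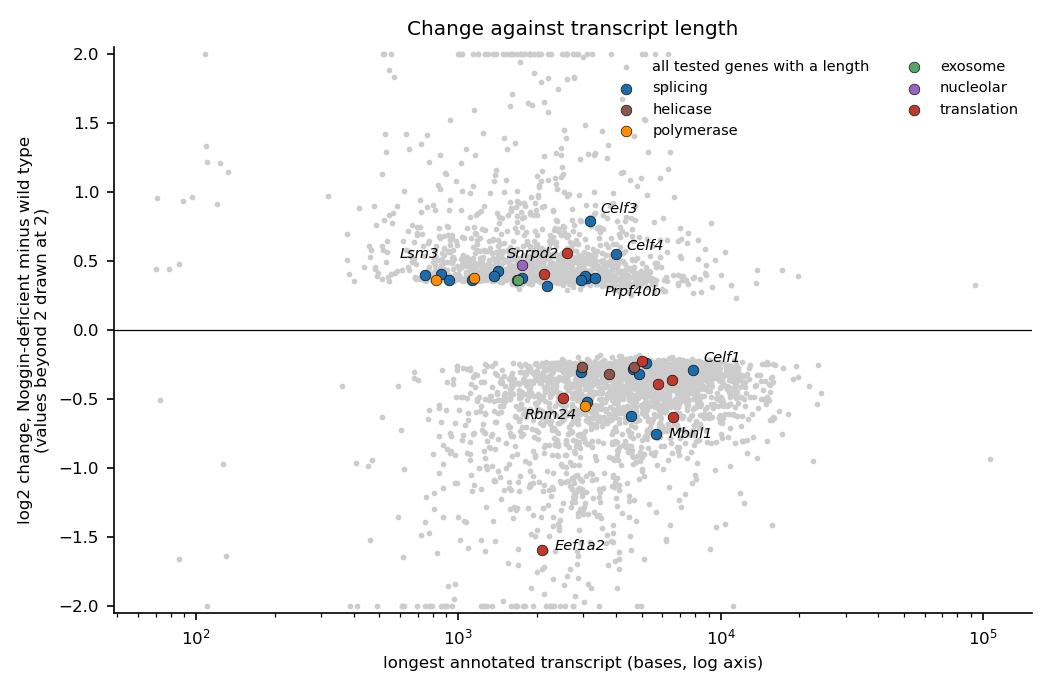
Log2 change (Noggin-deficient minus wild type) against the longest annotated transcript in bases, on a log axis; grey points are tested genes, those beyond 2 in either direction drawn at 2, and coloured points the members by class. All 12 members under 2000 bases are higher, and 9 of the 27 longer ones are.

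Many of the rises were also close to the smallest listed. The smallest rise of a tested gene whose mean reached 1 was 0.29, the smallest fall -0.2, and 17 of the members called higher had a log2 change between 0.3 and 0.45, as did 637 of the 1210 rising genes of that level.

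Set side by side, the classes differed in direction as deposited. The splicing class had 14 rises, 7 falls and 1 gene that did not pass among 22 tested, with a median log2 change of 0.36. Over all tested genes 37.9% rose and 60.1% fell. The polymerase and exosome classes each had a median of 0.36, from 3 and 2 genes. The translation class had a median of -0.37. With the length trend removed the 4 medians were 0.09, -0.08, 0.16 and -0.02. Then 9 splicing genes were called higher and 3 lower, where 32.3% of all genes were higher and 34.7% lower. The splicing class held both the snRNP genes and the muscle regulators, which moved apart as deposited. No test of the difference between classes was made, since the members of a class are not replicates of a condition.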

How the data were processed

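RNA from E15.5 mouse forelimb muscle was sequenced from 3 Noggin-deficient and 2 wild type samples; groups follow the genotype label. The deposited values are a signal per gene and sample, decimals that the authors normalized, with no unit named in files or labels. Libraries were made with a stranded mRNA kit, per the labels' protocols. The names STAR 2.4.2a, DESeq2 (no version) and mm9 are given, with no role, per the submitters' processing notes. Counting, annotation and normalization steps were not given in the sources used here. Since depth is unknown, no counting interval is given.

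Genes with at least 0.5 in at least 2 libraries were fitted with limma 3.58.1 (R 4.3.3, intensity trend) on log2(value + 0.25), without covariates, comparing Noggin-deficient with wild type muscle, with Benjamini-Hochberg adjustment over all 3913 genes, called under 0.05. Changes on this scale understate those of low genes. The fit was tested on simulated data in which most genes were unchanged. Unlike the deposited values, these held neither a length trend nor a selection of genes for differing. Alternatives were median-of-ratios and upper-quartile scaling, a pseudocount of 1, no filter, a minimum of 5, no intensity trend, a test against 1.5-fold, a replicate block, each library left out, and removal of a lowess trend (span 0.3) of change on GENCODE M21 transcript length, available for all 44 members. The scaling factors and the trend were taken from the listed genes alone. Promoter windows came from RefSeq (GRCm38.p6). The planned motifs in proteins were not run, and the value of 1 marker gene is not reported here.

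Members, lists and tests were chosen with earlier results of these data known. Named genes were the 12 largest rises and falls without overlap, the highest and the smallest-p member of each class and symbol family, and fixed muscle, initiation, sex-linked and imprinted genes. Other members were named after their values were seen. Samples with the same replicate number shared nothing that the labels state.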

Additional observations from a re-analysis of the deposited data

How the results depend on the processing

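The listed genes were selected for a difference, with values in an unnamed unit and at unknown depth, so counts of calls say little. The counting error of low values, such as those of Mbnl1, Celf3 and Eef1a2, could not be estimated. With 3 against 2 samples, a fit without a wild type library leaves 1, which is assumed to vary like the others. The pseudocount of 1, no filter and no intensity trend changed no call among the 39 tested members, nor did the minimum of 5 among the 27 it kept. With no filter, 41 of the 44 members were called, Celf5 and Celf6 higher and Srsf15 lower (-0.39, limma adjusted p = 0.046) being added.

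Under median-of-ratios scaling 8 members were called lower, under upper-quartile scaling 11, with the length trend removed 9, and 11 with the median transcript length, an alternative added after seeing the data, against 17 as deposited. With the length trend removed 2503 listed genes and 22 members were called, 13 of them higher. With a minimum of 5, 1918 listed genes were called. Against 1.5-fold, 569 listed genes and 1 member were called, 0 higher (limma, 0 of the 21 rises also at an unadjusted p under 0.05) and 1 lower.

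The members' median of 0.36 was 0.62 under median-of-ratios and 0.56 under upper-quartile scaling, 0.04 with the length trend removed, 0.05 with the median length, 0.31 with a pseudocount of 1, 0.34 with no filter and 0.32 with the replicate block. The splicing median was 0.63 and 0.56 under the 2 scalings, 0.09 and 0.09 under the 2 length corrections, 0.34 with a pseudocount of 1 and 0.37 with a minimum of 5. In the same order of scalings and length corrections, the helicase median was 0.0, -0.07, -0.11 and -0.04, the polymerase median 0.63, 0.56, -0.08 and -0.15, the exosome median 0.63, 0.56, 0.16 and 0.22, the nucleolar value 0.74, 0.67, 0.28 and 0.29, and the translation median -0.11, -0.17, -0.02 and -0.08. The polymerase median was 0.34 with the replicate block and the translation median -0.36 with a pseudocount of 1.

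Leaving out each library gave 36 to 38 members called, 21 higher and 15 to 17 lower, and 3458 to 3767 listed genes called. The medians then ran from 0.30 to 0.35 for the members, 0.33 to 0.38 for splicing, -0.30 to -0.27 for helicases, 0.32 to 0.39 for polymerases and -0.40 to -0.34 for translation.

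Single members turned direction. With the length trend removed these were Snrpd1 (-0.01), Lsm3 (-0.07), Polr2i (-0.08), Lsm4 (-0.03), Eif5a2 (0.09), Ddx3x (0.03), Mbnl3 (0.02), Celf1 (0.09), Rbm47 (0.09) and Larp4 (0.01). With the median transcript length they were Snrpd1 (0.0), Lsm3 (-0.01), Polr2i (-0.15), Lsm4 (-0.07), Eif5a2 (0.11), Ddx3x (0.05), Celf1 (0.09), Rbm47 (0.08) and Rbm20 (0.01). Under median-of-ratios scaling they were Eif5a2 (0.01) and Ddx3x (0.01). These settings were computed from the listed genes alone, so the directions are relative to those genes. The cause was not tested.

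Deviations of samples sharing a replicate number had correlations of -0.126 and -0.0617 for numbers 1 and 2. The deviations of the 2 wild type libraries from their mean mirror each other, so these correlations are not independent. Whether samples with the same number shared anything else was not tested. The replicate block gave 37 members called, Eif5a2 (-0.18, limma adjusted p = 0.096) and Rbm47 (-0.23, adjusted p = 0.12) not passing and Srsf12 passing (-0.46, adjusted p = 0.013).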

Other observations

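Genes of the same processes outside the symbol prefixes were listed less than in full, so their counts describe the tables. Of 87 splicing genes, 9 were listed, 2 higher (Gemin2 0.37 and Clk2 0.34) and 7 lower, with a median log2 change of -0.29 that was -0.02 under median-of-ratios scaling and 0.03 with the length trend removed. The largest falls were those of the epithelial splicing regulators. Esrp1 had 6.17, 5.96 and 6.15 in Noggin-deficient muscle, against 11.2 and 10.6 in wild type muscle, giving a log2 change of -0.81 (limma adjusted p = 2.2e-06) and -0.59 with the length trend removed. Esrp2 had 8.85, 8.84 and 8.89 in Noggin-deficient muscle, against 14.4 and 14.6 in wild type muscle, giving a log2 change of -0.69 (limma adjusted p = 1.4e-06) and -0.50 with the length trend removed. All 10 epidermis markers fell in the same samples, and their part in these values was not tested.

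Of 73 genes of transcription and RNA decay, 10 were listed, 3 higher and 7 lower, with a median change of -0.31. Among the 7 were Xrn1, an exonuclease that degrades RNA (-0.39), and Cnot6, a deadenylase subunit (-0.45), and that median stood at -0.04 after median-of-ratios scaling and 0.07 with the length trend removed. Of 78 genes of ribosome biogenesis and translation, 5 were listed, 4 higher and 1 lower, with a median of 0.37, or 0.64 after median-of-ratios scaling and 0.17 with the length trend removed. Npm1, the nucleolar protein nucleophosmin, had 470.4, 483 and 466 in Noggin-deficient muscle, compared with 342 and 362 in wild type muscle. Erythroid markers rose, 4 of 10 being listed, at summed values of 219 to 226 in the Noggin-deficient libraries and 94.6 to 99.0 in the wild type libraries. All 6 liver markers rose, at 89.3 to 90.8 in the Noggin-deficient libraries and 1.38 to 1.67 in the wild type libraries. The values of Serpina1a included a 0.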
